A study of Mus musculus with 12 samples.

Results

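The autosomal CpG methylation of 4 wild-type (Wt) and 4 Tg2576 (Tg) mouse brains was compared, animal by animal, in the 8 libraries whose chromosome X was highly methylated, out of 12 libraries in the series. The rule took the 4 Wt libraries and the 4 Tg libraries labelled female, and these 8 were chosen by their mean chromosome X methylation, which is high where an inactive X is present, so that sex was not a term of the test. Members of the site set were CpG cytosines on chromosomes 1 to 19 with at least 10 reads in all 8 libraries. There were 1036156 of them, 35.0% of the 2960644 autosomal sites covered in any of the 8. Their methylation level, the share of reads that kept a C after bisulfite treatment, was the measure.

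All animals were 11 months old by their labels, and the tissue was hippocampus and cortex together, so that cells of both regions and of all types were mixed. Tg2576 mice carry a transgene for human amyloid precursor protein with the Swedish mutation of familial Alzheimer's disease, expressed from a prion protein promoter. Wt mice are the non-transgenic comparison. The labels name no agent or treatment besides age. The series also holds 4 Tg males with no Wt male counterpart of low X methylation, and they enter no test here.

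DNA methylation in mammals sits mostly on the C of CpG dinucleotides, where DNA methyltransferases copy it from strand to strand at each replication. CpG-rich promoters are usually unmethylated, while gene bodies and intergenic DNA are usually methylated. In brain, methylation patterns differ between neurons and glia, and partly methylated CpGs in tissue can reflect a mixture of cells. Reduced representation bisulfite sequencing (RRBS) reads the ends of fragments cut at CCGG, and therefore samples CpG-rich DNA first.

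The sequences of some of the single sites and regions named in the comparison show what was read. They are given on the plus strand of mm10, with the tested CpGs in capitals, and the values of each follow below. Pde4a, Lppos, Gal3st1 and Slc30a3 hold 4 of the 8 named single sites, the first 3 more methylated in Tg and the last less. The named sites were binomial calls whose group ranges did not overlap, taken by the smallest p of the overdispersion model described below.
Pde4a, chr9:21181669-21181710: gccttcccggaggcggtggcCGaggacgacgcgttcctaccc
Lppos, chr16:24392857-24392898: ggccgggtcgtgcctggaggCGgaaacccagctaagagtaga
Gal3st1, chr11:3998507-3998548: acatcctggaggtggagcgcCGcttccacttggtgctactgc
Slc30a3, chr5:31092928-31092969: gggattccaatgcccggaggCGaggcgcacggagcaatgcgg
Among regions, the stretches near Cyp3a11 and in Col6a6 were more methylated in Tg, and those near Vmn1r-ps6 and in Ubxn10 less.
Cyp3a11, chr5:145850265-145850317: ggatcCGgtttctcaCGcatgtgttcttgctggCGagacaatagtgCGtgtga
Vmn1r-ps6, chr6:3121296-3121327: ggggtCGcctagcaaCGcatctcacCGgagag
Col6a6, chr9:105796279-105796347: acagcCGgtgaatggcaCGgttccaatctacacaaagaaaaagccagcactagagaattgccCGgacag
Ubxn10, chr4:138721065-138721112: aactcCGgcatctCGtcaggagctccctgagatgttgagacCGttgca
The promoters of Meg3 and Mir433 are shown because both lie in the imprinted Dlk1-Dio3 domain of chromosome 12 and had differences of opposite sign. The stretch of Meg3 is 1 of 4 in its promoter. The 4 sites of Mir433 lie inside that gene, near its annotated start.
Meg3, chr12:109540586-109540650: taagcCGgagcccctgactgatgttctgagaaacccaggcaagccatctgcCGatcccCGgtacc
Mir433, chr12:109591714-109591820: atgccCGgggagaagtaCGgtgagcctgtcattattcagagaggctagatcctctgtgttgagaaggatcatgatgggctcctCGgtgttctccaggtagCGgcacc

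The total coverage of the 8 libraries ran from 33619981 reads over sites in Tg 4 to 131446104 in Tg 1, and the median coverage of a member site ran from 20 in Tg 4 to 64 in Tg 1. Median coverage was 44 to 62 in Wt libraries and 20, 31, 36 and 64 in Tg libraries, so that 3 of 4 Tg libraries were read less deeply than any Wt library. The mean X level, which chose the libraries, was 19.9% to 22.98% in the 8 and 5.50% to 5.67% in the Tg males. The lowest of the 8, Wt 2, is labelled male. Its X level went against that label, and so did its 0.0696 chromosome Y sites for every 1000 autosomal ones, where the Tg males had 0.347 to 0.503, so it is called the library labelled Wt male where it bears on a result. Replicate numbers were given in record order and only name an animal.

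Overall methylation did not separate the genotypes. The mean autosomal level was 7.39%, 6.40%, 6.58% and 6.65% in Wt 1 to 4 and 7.25%, 6.93%, 6.63% and 6.68% in Tg 1 to 4. Wt 1 and Tg 1 were the highest libraries of their groups, and the groups overlapped. The Wt mean was 6.76% ± 0.436 (SD, n = 4), and that of Tg was 6.87% ± 0.282 (SD, n = 4). They lay 0.114 points apart, less than their spread (exact permutation test over 70 splits, two-sided, p = 0.657), with a 95% interval of −0.758 to 0.844 points. The smallest p that 4 against 4 animals allow is 0.0286. Without the library labelled Wt male the difference was −0.00366 points, and without Tg 1 it was −0.0112 points. At the 970775 autosomal sites covered in all 12 libraries, the Tg males had mean levels of 5.45% to 5.59%, inside the 5.15% to 6.06% of Wt and the 5.36% to 5.92% of the Tg libraries compared.

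By genomic context, promoters held 79.05% of the sites and almost no methylation. Promoter here means within 1000 bp of a transcription start on either side, and the other classes exclude promoters. In Wt animals promoter sites averaged 1.81% ± 0.116 (SD, n = 4). Tg animals had 1.84% ± 0.0423 (SD, n = 4), which is 0.0265 points more, with a 95% interval of −0.173 to 0.175. Exonic sites averaged 23.3% in Wt and 23.5% in Tg, intronic sites 23.7% and 24.3%, and intergenic sites 29.6% and 29.98%. The differences outside promoters were 0.276, 0.609 and 0.402 points, and every context had an adjusted p of 0.714 in the two-sided exact permutation test, adjusted over the 4 contexts. With each animal left out in turn, they ran from −0.148 to 0.985 points in exons, −0.00378 to 1.51 in introns and −0.171 to 1.18 in intergenic DNA, negative in 1 or more of these contexts without Tg 1 or without the library labelled Wt male, and highest without Wt 1. Tg 1 and Wt 1 were again the highest libraries of their groups in each context.

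**Figure D1:**
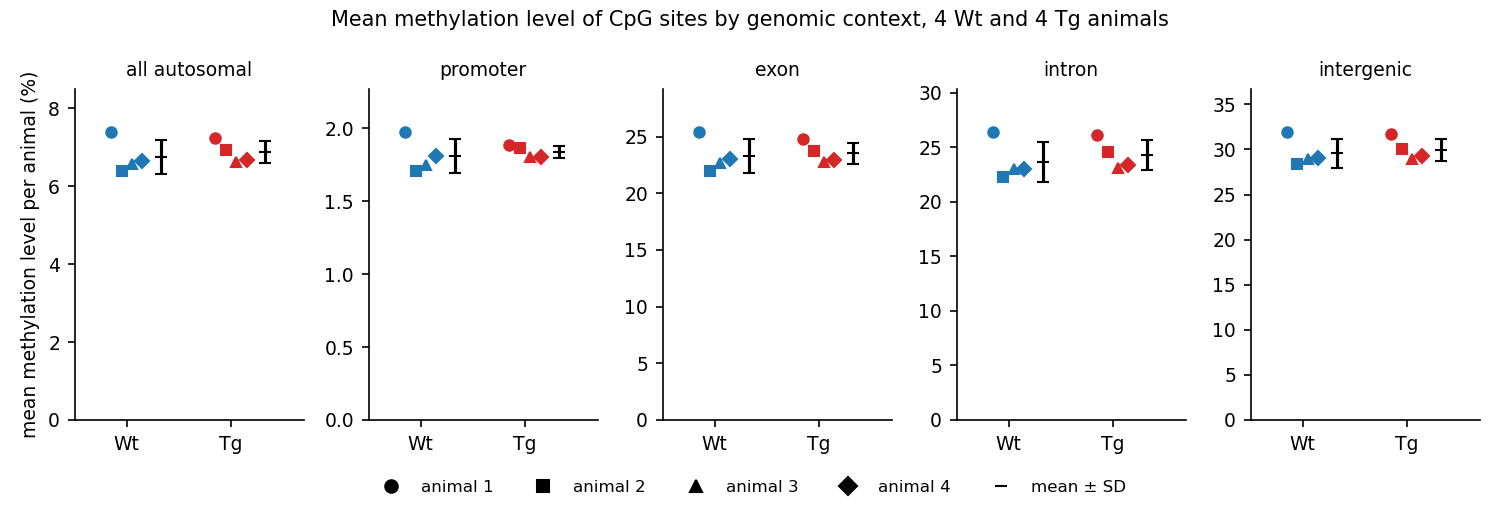
Mean methylation level per animal in percent (vertical axes, each from 0) over all autosomal sites and by context, with Wt in blue, Tg in red, a marker shape per animal and bars for mean ± SD (n = 4). Wt and Tg animals overlap in every panel, and Wt 1 (7.39% over all sites) and Tg 1 (7.25%) are the highest points of their groups.

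Tg animals had slightly fewer unmethylated and more partly methylated sites on average, without passing the test. Sites under 10% made up 87.5% ± 0.741 (SD, n = 4) of all sites in Wt, against 86.7% ± 0.593 (SD, n = 4) in Tg. Sites of 10% to 90% made up 10.2% and 11.02%. Sites over 90% made up 2.23% and 2.33%. The first 2 differences had an exact permutation p of 0.114 each (adjusted p = 0.171), and the third one of 0.2. The library of lowest coverage, Tg 4, had the fewest sites under 10% (86.0%), and whether coverage had a part in this was not tested. The Tg mean exceeded the Wt mean on all 19 chromosomes, by 0.0381 points on chromosome 12 to 0.165 on chromosome 5, with exact permutation p-values of 0.543 to 0.886. The chromosomes are not independent, since the same animals set all 19 values.

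Site by site, libraries of 1 genotype were on average no closer to each other than libraries of different genotypes. The mean absolute difference in site level was 3.46 points over the 12 pairs within a genotype and 3.44 points over the 16 pairs between genotypes. The pairs within a genotype were not alike, with 3.04 to 3.53 points among Wt libraries and 3.50 to 3.74 among Tg libraries. Pairs between genotypes had 3.15 to 3.81 points. Most Tg libraries were read less deeply than any Wt library, and whether depth had a part in this was not tested. The genotype label explained 13.3% of the variance among the 8 profiles, where the median over all 70 splits was 13.5% (one-sided exact permutation p = 0.686). A principal component analysis gave axes of 20.1%, 17.7%, 15.2% and 14.5%, of which Tg 4 carried 69.3% of the weight of the first and Tg 2 79.9% of the third.

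The main question was which sites and regions were differentially methylated between the genotypes. The binomial model, a logistic regression of methylated and unmethylated reads on genotype, counts every read of an animal as an independent draw. It called 22381 differentially methylated sites (DMS), 2.16% of the sites tested, at an adjusted p under 0.1 and a difference of at least 10 points between the group means. Of these, 13805 were hypermethylated in Tg (1.33% of tested sites) and 8576 hypomethylated (0.828%). The overdispersion model scales that deviance by the variation seen among the animals of each genotype. It called 0 sites (0%), while 57506 sites (5.55%) had an unadjusted p under 0.05 and the smallest adjusted p was 0.649. A limma fit on logit levels also called 0 sites, with 69945 at an unadjusted p under 0.05. No DMS is therefore claimed against the spread between animals, and the calls are described as calls of the binomial model. At the Gal3st1 and Lppos sites named below, animals of a genotype scattered less than counting allows (dispersion, explained below, 0.0745 and 0.246). On 6 residual degrees of freedom their overdispersion-model p was still 0.000505 and 0.00041, with an adjusted p of 0.649. The 0 calls therefore need not mean a large spread between animals. How far they reflect the degrees of freedom or the number of sites was not tested.

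Reads were also summed in 1000 bp tiles that held 3 or more sites. Of 38980 tiles, the binomial model called 1644 (4.22%), of which 1063 (2.73%) were higher and 581 (1.49%) lower in Tg. By the overdispersion model 0 tiles (0%) were called, 1930 (4.95%) had an unadjusted p under 0.05 and the smallest adjusted p was 0.950. By limma 0 were called and 1738 had an unadjusted p under 0.05. Among 16379 promoters the binomial model called 118 (0.72%), with 73 higher (0.446%) and 45 lower (0.275%), and among 7462 gene bodies, the sites of a gene outside promoters, it called 453 (6.07%), with 327 higher (4.38%) and 126 lower (1.69%). Of either, the overdispersion model called 0, with 809 promoters and 317 gene bodies at an unadjusted p under 0.05, and limma called 0 of either, with 765 and 285. The dispersion is 1 where reads scatter no more than counting allows. Its median was 1.10 over sites, 5.30 over tiles, 6.01 over promoters and 6.64 over gene bodies. At the called sites it was 3.41, and 95.4% of those had a dispersion above 1.

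**Figure D2:**
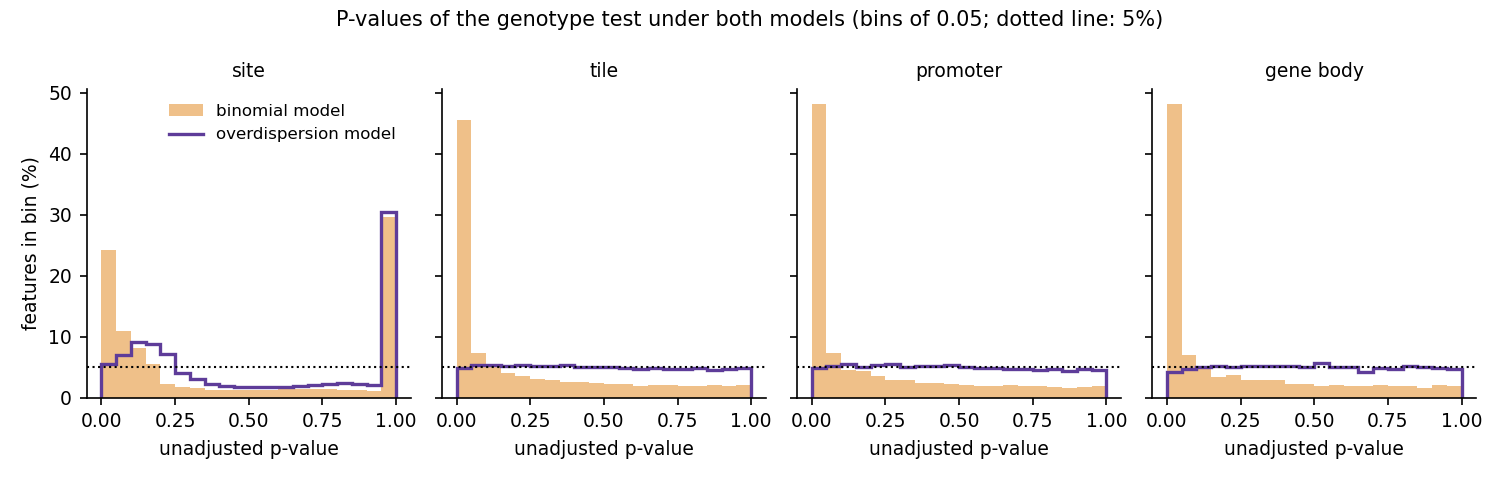
Share of features in percent (vertical axis) by unadjusted p-value in bins of 0.05 (horizontal axis) for the binomial model (filled) and the overdispersion model (line), for sites, tiles, promoters and gene bodies. The first bin holds 45.6% of tiles under the binomial model and 4.95% under the overdispersion model, next to the dotted line at 5%.

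A gap between the 4 Wt values and the 4 Tg values was seen at 4648 sites (0.449%), 939 tiles (2.41%), 401 promoters (2.45%) and 158 gene bodies (2.12%). Features that were called by the binomial model and had ranges that did not overlap numbered 2589 sites (0.25%), 173 tiles (0.444%), 17 promoters (0.104%) and 56 gene bodies (0.75%). Those higher in Tg made up 0.15% of sites, 0.292% of tiles, 0.0549% of promoters and 0.523% of gene bodies, and those lower 0.0997%, 0.151%, 0.0488% and 0.228%. The named features below were taken from these, so their difference and their lack of overlap follow from the choice. Their values are a description.

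The binomial DMS lay where methylation was intermediate. The called sites had a median level of 35.1%, against 0.806% for all tested sites, a median coverage of 30 reads against 42, and a median absolute difference of 15.7 points. Of promoter sites 0.625% were called, of exonic sites 7.09%, of intronic sites 8.40% and of intergenic sites 8.20%. A site near 0% in every animal cannot reach a difference of 10 points. Tiles of 10% to 90% had a median absolute difference of 4.03 points and a median SD within a group of 9.13 points, and 1613 of these 12006 tiles were called (13.4%). Tiles under 10% differed by a median of 0.381 points with an SD of 0.728, and 7 of 24205 were called. Tiles over 90% differed by 2.13 points with an SD of 4.20, and 24 of 2769 were called. In each level class the median difference was smaller than the median SD within a group. Means of 4 animals vary less than single animals, so that this cannot decide whether the genotypes differ. Called tiles were also CpG-poor, with a median of 18.5 CpGs per tile in the reference against 34 for all tested tiles, and 4 sites read against 10.

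The opposite strand of the same CpG is a further set of reads from the same animals. Where both strands had a difference other than 0, at 7645 called sites, its sign was the same in 53.6%. Of the 7919 called sites with a tested opposite strand, that strand reached 10 points in the same direction in 14.2% and was itself called in 12.8%. Over all tested sites with a mean level of 10% to 90%, called or not, the shares were 51.7%, 14.6% and 15.3%. The calls were spread over the genome. Their share per chromosome ran from 1.78% of sites on chromosome 14 to 2.46% on chromosome 7. In 228 windows of 10 Mb with at least 50 tiles, the share of tiles whose ranges did not overlap had a median of 2.24% and a highest value of 7.58%.

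The direction of the calls leaned to hypermethylation in Tg and depended on single animals and, in promoters, on the read minimum. Of the binomial calls, 61.7% of sites, 64.7% of tiles, 61.9% of promoters and 72.2% of gene bodies were higher in Tg. With at least 20 reads per site, 37.5% of 24 promoter calls were higher. Without Wt 1, the Wt library of highest mean level, these shares were 69.5%, 78.9%, 79.4% and 85.3%, and the calls numbered 2514 tiles and 797 gene bodies. Without Tg 1, the Tg library of highest level, the shares were 55.9%, 49.1%, 51.6% and 57.4%. Without the library labelled Wt male they were 52.1%, 53.4%, 52.0% and 61.4%, over 22666 sites, 1762 tiles, 148 promoters and 482 gene bodies. Without both Wt 1 and Tg 1 the shares were 64.2%, 65.4%, 65.4% and 75.2%. The overdispersion model called 0 sites, tiles, promoters and gene bodies in each of these fits.

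**Figure D3:**
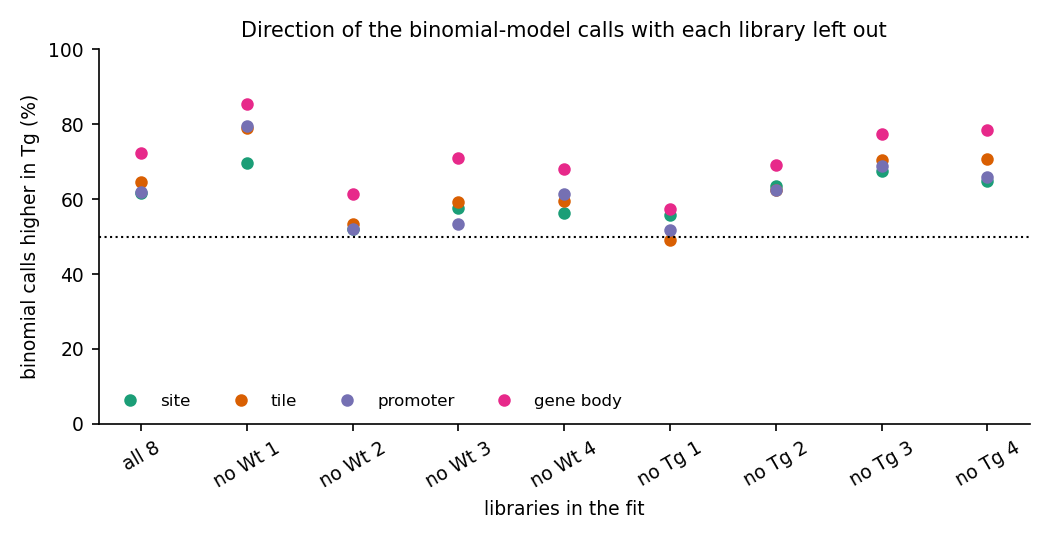
Share of binomial-model calls that were higher in Tg, in percent (vertical axis), with all 8 libraries and with each library left out (horizontal axis), for sites, tiles, promoters and gene bodies. Tile calls run from 49.1% without Tg 1 to 78.9% without Wt 1, and the dotted line marks 50%.

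Among the 8 named sites, 7 were hypermethylated in Tg and 1 was hypomethylated. All 8 had an overdispersion-model adjusted p of 0.649, and none was called by that model in any alternative.

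Pde4a (ENSMUSG00000032177.17) encodes a phosphodiesterase that degrades cAMP. Its intronic site at position 21181689 of chromosome 9, plus strand, had levels of 4.44%, 0%, 2.33% and 0% in Wt 1 to 4 and 32.9%, 12.5%, 38.5% and 40% in Tg 1 to 4, with 10 to 86 reads per library. The Tg animals spread widely, and the lowest of them stood well above the highest Wt animal. The difference was 29.3 points, whereas the opposite strand of the same CpG differed by −10.6 points, and both strands summed by 7.45 points. The Tg males had 0% to 11.5%.

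Lppos (ENSMUSG00000097867.1), a non-coding gene on the strand opposite Lpp, had a promoter site at position 24392877 of chromosome 16 with 16.7%, 14.8%, 20% and 16% in Wt and 59.6%, 56.3%, 54.5% and 46.2% in Tg, on 10 to 54 reads. Both groups were tight, 16.9% ± 2.22 (SD, n = 4) and 54.1% ± 5.73 (SD, n = 4), and 37.3 points apart. The Tg males covered 0% to 51.1%, from below the Wt animals to inside the range of the Tg animals.

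Gal3st1 (ENSMUSG00000049721.14) encodes the sulfotransferase that makes the myelin lipid sulfatide. Its exonic site at position 3998527 of chromosome 11 had 0 methylated of 100 reads over the 4 Wt animals, which allows a level of up to 3%, and 31.8%, 25%, 26.1% and 28.6% in the Tg animals. The lowest library had 10 reads here, and the 3 Tg males with a value had 0% to 17.6%. Limits and intervals on reads cover counting error only, since RRBS reads without molecular identifiers are not independent molecules.

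Slc30a3 (ENSMUSG00000029151.14), the zinc transporter of synaptic vesicles, had the site that was lower in Tg. At position 31092948 of chromosome 5, in its promoter, the Wt animals had 15.2%, 16.3%, 12.5% and 7.77%, and the Tg animals 0 methylated of 204 reads, which allows up to 1.47%. The opposite strand differed by −4.55 points, the same direction, and the Tg males had 0% to 8%, reaching the Wt range.

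The other sites described were higher in Tg. Tmem88 (ENSMUSG00000045377.5), a membrane protein that dampens Wnt signalling, had a promoter site with a mean of 0.203% in Wt and 11.96% in Tg. The opposite strand of that CpG differed by −0.874 points, and with both strands summed the difference was 5.58 points, under the size of a call. A site in an intron of the predicted gene Gm11033 (ENSMUSG00000079011.9) and a site 8500 bp from the start of Camp (ENSMUSG00000038357.10), an antimicrobial peptide gene, were at 100% in all 4 Tg animals, with Wt ranges of 58.3% to 76.9% and 61.9% to 84.6%. Of these 8 sites, all had at least 1 Tg male at or beyond the nearest Wt animal.

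The 12 named tiles, 1 within any 10000 bp, held 3 to 11 sites each, and 10 of them were higher and 2 lower in Tg. The overdispersion-model adjusted p was 0.950 for each. Here and below, the level of a Tg male in a region rests on the sites covered in that male. These can be fewer than the sites of the compared animals. In the tile chr5:145850001-145851000, which lies 29464 bp from the start of Cyp3a11 (ENSMUSG00000056035.8), a drug-metabolising cytochrome P450 gene, the 4 CpGs had levels of 73.3%, 81.1%, 75.3% and 74.6% in Wt 1 to 4 and 95.8%, 90.7%, 90% and 93.8% in Tg 1 to 4. The groups stood 16.5 points apart on 40 to 223 reads per library. The Tg males had 72.7% to 95%, so that they covered both groups.

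The tile chr6:3121001-3122000, 8636 bp from the start of the vomeronasal receptor pseudogene Vmn1r-ps6 (ENSMUSG00000107380.1), was the one with the largest difference among the 12. Its 3 CpGs had 83.3%, 94.4%, 76.5% and 84.8% in Wt and 57.6%, 63.3%, 54.9% and 52.4% in Tg, a difference of −27.7 points. Each of the 3 sites was lower in Tg, with differences of −34.3 to −23.3 points. The 3 sites span 21 bp of 1 strand and each had 12 to 70 reads per library. Here and below, neighbouring CpGs of a strand can share reads, and their agreement is then not separate evidence. The 4 Tg males, at 82.0% to 90.5%, all lay in the Wt range.

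Col6a6 (ENSMUSG00000043719.14) encodes a chain of collagen VI, an extracellular matrix protein. The tile chr9:105796001-105797000 in its intron was nearly unmethylated in Wt, at 2.63%, 0%, 6.57% and 1.73%, and had 21.4%, 17.96%, 17.2% and 19.7% in Tg. The 4 sites differed by 8.05 to 22.0 points, all higher in Tg, and the Tg males had 1.06% to 10.8%.

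Ubxn10 (ENSMUSG00000043621.13), a cofactor of the ATPase VCP that takes part in cilium formation, had an exonic tile at chr4:138721001-138722000 that was lower in Tg. Its levels were 78.6%, 81.0%, 87.5% and 90.5% in Wt and 67.4%, 65.9%, 70.4% and 66.7% in Tg, a difference of −16.8 points. The 2 Tg males with a value, at 58.3% and 67.1%, stood on the side of the Tg animals.

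Among the other 8 tiles, all higher in Tg, the differences ran from 10.4 points near Abca5, a lipid transporter gene, to 24.4 points in an exon of Wdr66, a cilium and flagellum gene. Introns of Prdm16, a transcriptional regulator, and Kcnj6, a potassium channel that opens on G protein signals, held tiles that differed by 11.2 and 12.7 points. The Kcnj6 tile had 11 sites, of which 8 were higher and 3 lower in Tg, and its neighbouring tile differed by −5.51 points. With the mean of the site levels in place of summed reads, the ranges overlapped in the Prdm16 and Gm11431 tiles, and the difference was under 10 points in the Kcnj6 tile (9.93) and the Gm11431 tile (8.47), while the other 9 tiles kept both. Thinned to 10 reads per site, the Prdm16 tile differed by 7.25 points and the Gm11431 tile by 3.75.

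Of the 8 named promoters, 5 were higher and 3 lower in Tg, and each had an overdispersion-model adjusted p of 0.947. Meg3 (ENSMUSG00000021268.17) is a non-coding RNA made from the maternal chromosome. Its promoters, around the transcription starts of a gene at chr12:109541001-109571726, had 10 sites and levels of 21.5%, 25.5%, 24.7% and 18.9% in Wt and 33.8%, 31.5%, 37.8% and 30.6% in Tg. The groups were 22.6% ± 3.04 (SD, n = 4) and 33.4% ± 3.19 (SD, n = 4), 10.8 points apart, and 9 of the 10 sites were higher in Tg, with differences of −1.40 to 29.3 points. The largest were on the minus strand at positions 109540638 and 109540645, at 29.3 and 21.9 points, while the plus-strand cytosine of the first of these CpGs, at 109540637, differed by 0.0976 points. The Tg males had 8.41% to 25.4%, none above the highest Wt animal. With at least 20 reads per site the difference was 2.03 points, under the size of a call.

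Mir433 (ENSMUSG00000070072.1), a microRNA gene of the same imprinted domain, had a difference of the other sign. Its 4 sites count as promoter sites by their distance to the annotated start, but all lie inside the gene, at chr12:109591715-109591838. They had 83.3%, 98.4%, 90% and 89.2% in Wt and 60.1%, 74.8%, 74.5% and 67.9% in Tg, a difference of −20.9 points on 40 to 258 reads. The 4 sites graded along the stretch, from −36.3 points at position 109591719 through −30.8 and −21.0 to 4.12 at position 109591814. The 3 Tg males with a value had 55.6% to 93.3%.

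Slc6a12 (ENSMUSG00000030109.15), a transporter of betaine and GABA, had 3 promoter sites that differed by 20.5 to 23.2 points and lay at more than 1 transcription start. Of these, 2 lie within a stretch of 32 bp on 1 strand, each with 12 to 44 reads per library, and can share reads. Its levels were 37.3%, 37.3%, 30% and 35.6% in Wt and 68.8%, 56.9%, 55.6% and 46.2% in Tg, and the Tg males had 40% to 61.7%, all above the Wt animals. The microRNA gene Mir6957 and the predicted genes Gm48021 and Gm47608 were also higher in Tg, by 16.7, 17.7 and 13.5 points. The pseudogene Zfa-ps was lower by 17.3 points, with the 4 Tg males at 75.6% to 87.8%, on the side of the Tg animals. Tg 1 had 60% there and the other Tg animals 77.97% to 88.5%, and without Tg 1 the difference was −11.1 points. AC132351.1 was lower by 24.8 points. The Gm47608 promoter and the tile named for Gm47607 and Gm47608 hold the same 3 sites.

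All 8 named gene bodies were higher in Tg, with overdispersion-model adjusted p-values of 0.978. They were Frmd4a, a scaffold of cell polarity, Sppl3, an intramembrane protease of the presenilin-related family, the predicted antisense gene Gm15857, P2ry6, a receptor for UDP found on microglia, Lmtk3, a kinase expressed in neurons, Slpi, a protease inhibitor, Baiap2l1, an actin and membrane adaptor, and Cacng4, an auxiliary subunit of AMPA receptors. Their summed-read differences were 10.2 to 24.4 points. Gm15857 holds the same 4 sites as the Wdr66 tile.

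These differences depended on how the sites of a gene were averaged. Summing reads weights a site by its coverage, so that a gene whose sites differ in level changes when the coverage of its sites changes. Cacng4 (ENSMUSG00000020723.3) had summed-read levels of 38.1%, 33.6%, 37.0% and 47.5% in Wt and 55.4%, 55.7%, 51.1% and 52.0% in Tg, a difference of 14.5 points. Its 9 sites one by one differed by −2.33 to 8.81 points, and the mean of its site levels was 64.5% in Wt and 66.4% in Tg, a difference of 1.89 points with overlapping ranges. Its 6 sites over 50% took 38.4% of the Wt reads and 53.2% of the Tg reads.

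Sppl3 (ENSMUSG00000029550.11) rested on 3 sites, 2 of them near 0% and 1, at position 115032955 of chromosome 5, at 61.2% in Wt and 73.8% in Tg. That site took 6.66% of the Wt reads and 19.8% of the Tg reads. The summed-read levels were 2.53% to 4.53% in Wt and 9.30% to 23.6% in Tg, 11.2 points apart, against 4.75 points for the mean of the site levels, and −4.17 points when every site was thinned to 10 reads. Lmtk3, with 71 sites, went from 10.3 to 3.38 points as a mean of site levels and had 1.31 points with at least 20 reads per site. The site means of the others also gave smaller differences, with Slpi going from 11.2 to 3.202, Frmd4a from 10.9 to 4.70, Baiap2l1 from 10.2 to 6.24 and P2ry6 from 16.3 to 9.81. The share of reads at sites over 50% was higher in Tg than in Wt in 7 of these 8 gene bodies and 100% in both for Gm15857, the only one of the 8 that kept a difference of at least 10 points as a mean of site levels (24.3 points). Whether read coverage differed between the genotypes at such sites for a biological or a technical reason was not tested.

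**Figure D4:**
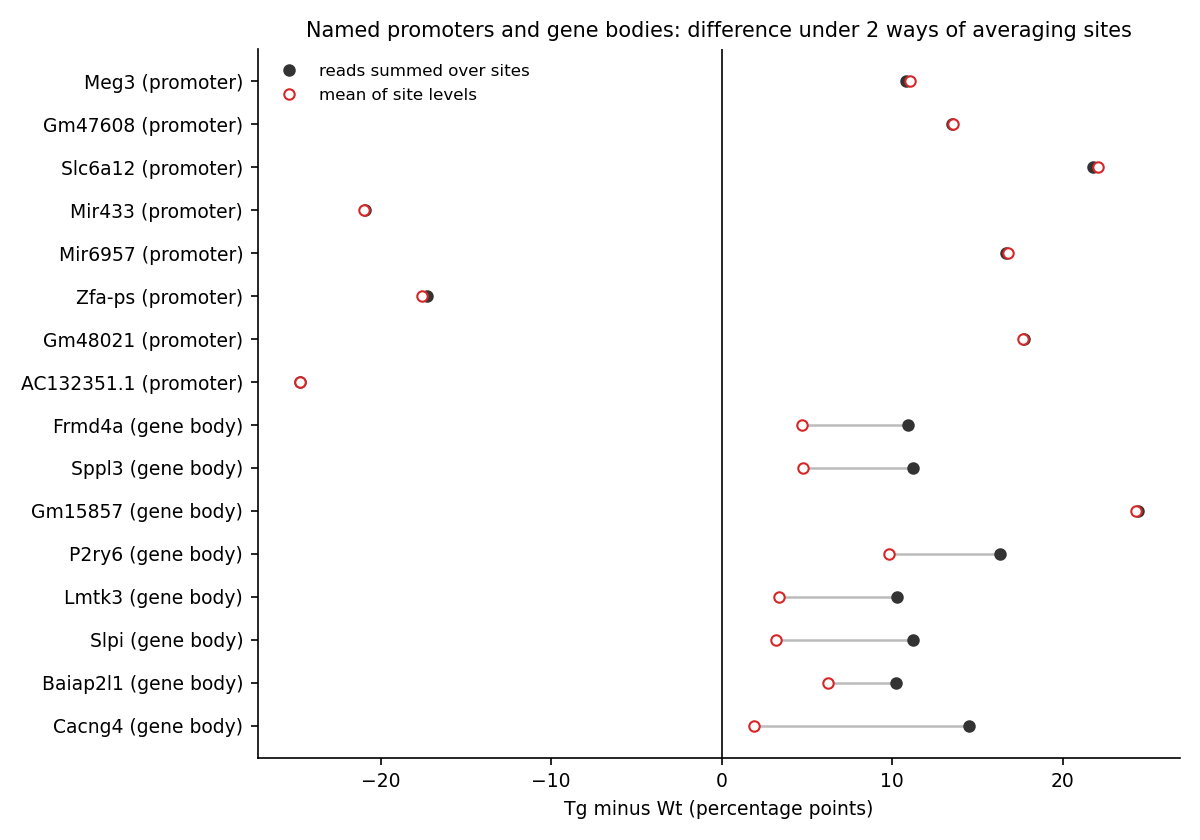
Tg minus Wt difference in percentage points (horizontal axis) of the named promoters and gene bodies, with reads summed over sites (filled) and as the mean of site levels (open). The promoters hardly move, while 7 of the 8 gene bodies fall below 10 points, Cacng4 from 14.5 to 1.89.

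Over all binomial calls, 99 of the 118 promoters (83.9%) and 299 of the 453 gene bodies (66.0%) had a difference of at least 10 points in the same direction as a mean of site levels. A limma fit of these means called 0 promoters and 0 gene bodies, with 572 and 256 at an unadjusted p under 0.05. The median difference over all gene bodies was 0.620 points with summed reads and 0.339 points with site means, and that over all promoters was 0.0163 and 0.0201 points.

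Genes with a role in Alzheimer's disease, in the cell types of the tissue or in the pathways of the study were read as lists. Promoters were called in 1 of the 16 lists, the imprinted genes, with 2 of 25 measured promoters higher in Tg (8%, against 0.72% of all promoters). They were Meg3 and Mcts2, a paternally expressed retrogene whose promoter had 35.4%, 33.2%, 13.7% and 22.4% in Wt and 28.0%, 37.5%, 42.5% and 37.98% in Tg, with ranges that overlapped. Imprinted promoters had a median level of 24.0%, against 0.929% for all promoters, a level from which 10 points are possible in either direction. In the other 15 lists 0 promoters were called by either model, among them 18 of APP processing, 17 of Alzheimer risk genes, 33 of extracellular matrix, 38 of synaptic signalling and 20 of activity-dependent early genes. Their median differences ran from −0.419 points in the oligodendrocyte list to 0.315 in the vascular list. At an unadjusted p under 0.05 the overdispersion model placed 0 of 18 APP processing promoters, 0 of 17 risk promoters, 2 of 33 matrix promoters and 1 of 38 synaptic promoters, against 4.94% of all promoters. Among the other lists it placed 2 of 9 astrocyte, 2 of 9 oligodendrocyte and 3 of 33 protein secretion promoters, and at most 1 in any further list.

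Gene bodies were called singly and in both directions, against a background of 6.07%. Of 34 matrix genes, 1 was higher, Col6a2, another collagen VI chain, by 10.4 points, or 6.36 as a mean of site levels. The matrix list had a median difference of 3.23 points with summed reads, against 0.620 over all gene bodies. Medians of the lists ran from −1.97 points (astrocyte) to that value. The level of the matrix list per animal was 47.6% to 54.8% in Wt and 52.4% to 54.3% in Tg, and a shift of the list was not tested. Of 30 synaptic genes, Nlgn2, an adhesion protein of inhibitory synapses, was higher by 11.8 points, or 3.35 as a mean of site levels, and Gabbr1, a subunit of the GABA-B receptor, was lower by 10.01 points, or by 9.37 as a mean of site levels. The Gabbr1 animals did not overlap, at 28.2% to 37.4% in Wt and 16.1% to 26.6% in Tg. Of 10 protein secretion genes, Exoc4, a subunit of the exocyst that tethers secretory vesicles, was higher by 20.9 points, at 33.6% to 56.4% in Wt and 59.7% to 80.6% in Tg, and by 20.7 points as a mean of site levels. Mbd2, a reader of methylated DNA, was higher by 13.2 points with overlapping animals. The overdispersion-model adjusted p of every one of these genes was 0.978. Of 8 APP processing and 11 Alzheimer risk gene bodies, 0 were called by either model, and 0 and 2 had an unadjusted p under 0.05 in the overdispersion model.

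Markers of cell types were measured as a check on tissue composition. Among gene bodies, Cnp, a myelin enzyme, was lower by 17.2 points with levels of 17.1% to 77.2% in Wt and 20% to 70.7% in Tg, and the vascular genes Acta2, a smooth muscle actin, and Pecam1, an endothelial adhesion protein, were lower by 10.8 and higher by 11.9 points. All 3 had overlapping animals. Cnp was 1 of 10 measured oligodendrocyte gene bodies (10%), whose median difference was −0.789 points, and the vascular genes were 2 of 7 (28.6%), against 6.07% of all gene bodies. The neuron, astrocyte and microglia lists held 0 called of 20, 9 and 2 measured promoters and 0 called of 13, 10 and 7 measured gene bodies. Summed over a list, levels overlapped between the groups in each cell type list. Neuron gene bodies had 17.1% to 26.2% in Wt and 21.3% to 23.2% in Tg, astrocyte gene bodies 36.6% to 40.04% and 35.2% to 39.1%, oligodendrocyte gene bodies 32.3% to 38.3% and 29.3% to 36.4%, and microglia gene bodies 24.3% to 34.7% and 26.6% to 35.6%. In bulk tissue, a change in the share of a cell type and a change of methylation within it cannot be told apart.

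Across the 36 named features, at least 1 Tg male lay at or beyond the nearest Wt animal in 29, and all Tg males with a value stood at or beyond the nearest Tg animal in 2, the Ubxn10 tile and the Zfa-ps promoter. The Tg males differ from the compared animals in sex, were in no comparison, and give no test. In tiles, promoters and gene bodies their values can also rest on fewer sites than those of the compared animals. Without the library labelled Wt male, all 36 kept their direction, as they had to, since their group ranges did not overlap. Their differences were then 0.870 to 1.23 times those with all animals. The overdispersion model called 0 of them (smallest adjusted p = 0.656).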

How the data were processed

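Brain genomic DNA of 12 mice was read by RRBS. By the study's methods, the authors used a commercial RRBS service with paired-end reads. Bismark, methylKit and mm10 are in the submitters' processing notes. The deposited values are counts per CpG cytosine and strand, namely coverage, reads of C and reads of T, with 1 file per animal and at least 10 reads per site. No site of lower coverage was analysed here. The authors' own site comparison, a table of differences and q-values, was not used. All members and gene lists were chosen with earlier results of these data known.

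Autosomal sites (chromosomes 1 to 19) that had 10 or more reads in every one of the 8 libraries were kept, and 22 duplicated positions were dropped. In mm10, 100% were a C. Per-animal values were compared by exact permutation over 70 splits. Read counts were compared by logistic regression with genotype as the term, by a likelihood-ratio chi-square (binomial model) and by an F test with a Pearson dispersion of at least 1 on 6 residual degrees of freedom (overdispersion model), fitted on sites, on tiles of 1000 bp, promoters (1000 bp either side of a start, GENCODE vM21 basic) and gene bodies with at least 3 sites. The study's methods adjust for sex; here sex was not a term. The Benjamini-Hochberg adjustment ran over all features tested. The scripts used Python 3.11.15, numpy 2.4.6, scipy 1.17.1, pandas 2.3.3, R 4.3.3 and limma 3.58.1 on logit levels with a pseudocount of 1, and were tested on simulated data.

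Named features were up to 8 sites, 12 tiles, 8 promoters and 8 gene bodies. Overdispersion-model calls came first, then binomial calls whose group ranges did not overlap, smallest overdispersion-model p first, with 1 site or tile within 10000 bp. From each gene list, members called by either model were named. Values of 1 named site are not reported here. Detail on single sites in named regions and the comparison with Tg males were added after the values were seen. Nothing states that animals were litter-mates or were processed together. The p-values of the permutation tests, the overdispersion model and limma measure the spread between these animals. In the overdispersion model, counting error takes its place where the spread is smaller. Those of the binomial model rest on reads alone. The labels state 11 months of age.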

Additional observations from a re-analysis of the deposited data

Results flagged for a closer look

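In 83 groups of 4 animals, 4 held a value that stood apart from the other 3 by Dixon's ratio, and 4.15 would by chance. In Tg 4, the library of lowest coverage, sites over 90% made up 2.39% of sites, against 2.30% to 2.31% in the other Tg animals. At the Tmem88 site, Wt 4 had 0.813% and the other Wt animals 0%, a difference of 1 methylated read. At the Mir6957 promoter, Tg 1 had 68.1%, against 77.5% to 78.7% in the other Tg animals and a highest Wt value of 63.5%. In the Frmd4a gene body, Wt 1 had 33.6%, against 27.99% to 28.4% in the other Wt animals, and the lowest Tg value was 38.7%.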

How the results depend on the processing

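Over 25 alternatives, the overdispersion model and limma called 0 of the features that each fit covered. Not every alternative fitted every feature or model. Those that changed only the thresholds or the weighting of the difference reused the same p-values, so that 0 calls followed. Of 659 recomputed values of named features 0 were called and 1 was reversed, Sppl3 at −4.17 points when sites were thinned to 10 reads. Leaving out 1 animal could not reverse a named feature, since its group ranges did not overlap. The cause of the changes below was not tested, except that stricter limits leave fewer features to call. With 20 reads per site the binomial model called 3698 sites, 178 tiles, 24 promoters (37.5% of them higher in Tg) and 70 gene bodies, and thinned to 10 reads it called 389 sites. With a difference of 25 points it called 2717 sites, 42 tiles, 6 promoters and 6 gene bodies, and with 5 sites per tile 498 tiles. Chosen after seeing the data, 10 sites per gene gave 10 promoters and 64 gene bodies, and the fit without Wt 1 and Tg 1 gave 182 promoters and 711 gene bodies. A difference of read-weighted levels put 71.5% of tile calls higher in Tg. With each animal left out in turn, calls ran from 22176 to 26892 sites, 1716 to 2514 tiles, 122 to 165 promoters and 482 to 797 gene bodies, and the variance accounted for by genotype ran from 14.5% to 16.9%. The mean differences then ran from −0.0112 to 0.326 points over all sites, −0.00743 to 0.0809 in promoters, −0.148 to 0.985 in exons, −0.00378 to 1.51 in introns and −0.171 to 1.18 in intergenic DNA, negative without the library labelled Wt male (−0.00366, −0.00743, −0.148 and −0.0094 over all, promoter, exonic and intergenic sites) or without Tg 1 (−0.0112, −0.134, −0.00378 and −0.171 over all, exonic, intronic and intergenic sites). With reads pooled over sites the promoter difference was −0.0555 points. No paired analysis was possible because the labels carry no replicate numbers.

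At some of the named single sites the lowest library has 10 reads. The intervals given hold the differences that the exact permutation test does not reject with these animals. Sites with fewer than 10 reads in any of the 8 libraries were not analysed.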
